A study of Mus musculus with 18 samples.

Results

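Sirtuins are the NAD-dependent deacylases, and mouse has 7 of them, Sirt1 to Sirt7. All 7 were taken by gene name from both tables of the series, and all 7 passed the filter on low values in both, among 22233 genes kept of 34385 in the knockdown table and 20725 of 34396 in the overexpression table. The series measured mRNA in EGFP-positive cells sorted from retinal explants of ICR mice, an outbred stock. Retinas were electroporated at postnatal day 0.5 with an EGFP plasmid and a second plasmid, and were kept in culture for 3 days. In the knockdown table the second plasmid expressed a scramble shRNA, an shRNA against Nmnat1 or an shRNA against Nmnat2. In the overexpression table it was an empty vector, or it expressed Nmnat1 or Nmnat2. Each of the 6 groups held 3 libraries, and every cell, controls included, had been electroporated and carried EGFP. Electroporation reaches only some cells of a retina, so each library is a mixture of the transfected cell types, and nothing in the labels says whether libraries came from separate animals. A p-value here sets a difference against the scatter of 3 libraries per group, and that scatter could be purely technical.

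A sirtuin removes an acetyl or longer acyl group from lysine and spends a molecule of NAD each time, releasing nicotinamide, which in turn inhibits the enzyme. Nmnat enzymes make that NAD from nicotinamide mononucleotide, Nmnat1 in the nucleus and Nmnat2 at the Golgi and in axons. Loss of NMNAT1 function causes an early retinal degeneration in people, and photoreceptors are known for a high demand on NAD. Sirt1, Sirt6 and Sirt7 are nuclear, with Sirt7 enriched in the nucleolus. Sirt2 is mainly cytosolic, and Sirt3, Sirt4 and Sirt5 are mitochondrial. The design asks whether the mRNAs of the enzymes that use NAD move when the enzymes that make it are lowered or raised.

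The libraries set limits that bear on every result. Levels are given in parts per 1000000 of a column's sum (ppm), and they are scaled for transcript length, so levels of different genes can be compared. Nmnat1 mRNA was at 19.1, 20.9 and 17 ppm in scramble and at 7.37, 8.54 and 7.49 ppm in Nmnat1 knockdown, without overlap, but the limma adjusted p was 0.130. Nmnat2 mRNA was low and uneven in scramble, from 0.624 to 6.22 ppm, and lay between 0.503 and 1.27 ppm in Nmnat2 knockdown, which overlaps. Overexpression stood at 14797 to 27832 ppm of Nmnat1 and at 20911 to 22818 ppm of Nmnat2, against 18.7 to 22.6 and 1.14 to 2.71 ppm in empty vector. Nmnat2 knockdown library N2_2 had the smallest column sum of its table, 14.4 in units of 1000000 against 17.6 to 29.6. Several of its marker sums also stood apart from those of N2_1 and N2_3. Rod markers summed to 3333 ppm against 2080 and 2074 ppm, and amacrine and horizontal cell markers to 270 ppm against 619 and 638 ppm. Progenitor markers summed to 79.98 ppm against 183 and 187 ppm. Among overexpression libraries those numbered 1 stood apart in several sirtuins. Results are given with and without N2_2 and the libraries numbered 1. All 8 rod markers were measured, with summed levels of 4988 to 5275 ppm in scramble and 5169 to 5584 ppm in empty vector, and red blood cell markers summed to 0 to 10.6 ppm over all libraries. By the size of 1-read steps, a gene 1 kb long had about 11.2 to 20.6 reads per ppm, and the least abundant sirtuin of each library had the equivalent of 171 to 453 reads.

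On GRCm38, GENCODE release M21 places the nuclear members Sirt1 at chr10:63319005-63381704 (minus), Sirt6 at chr10:81621785-81627797 (minus) and Sirt7 at chr11:120618372-120625240 (minus). It places the cytosolic Sirt2 at chr7:28766735-28788661 (plus) and the mitochondrial Sirt3 at chr7:140863666-140882309 (minus), Sirt4 at chr5:115478010-115484725 (minus) and Sirt5 at chr13:43365496-43395203 (plus). Stretches upstream of a start site are shown because Sirt2, Sirt3 and Sirt5 carry the results below. Promoter windows came from RefSeq on GRCm38.p6, from 250 bases before to 50 after each gene's start, and all 7 genes matched. Only the part outside annotated exons is printed. Where another gene's exon covers the window, as for Sirt3, 30 bases placed around the first ETS-type match are printed instead. Capitals mark a motif match found on either strand.
Sirt2, chr7:28766641-28766734, plus strand: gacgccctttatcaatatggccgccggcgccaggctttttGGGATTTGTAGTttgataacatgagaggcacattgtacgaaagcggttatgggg
Sirt3, chr7:140882376-140882405, minus strand: gtgctcgctcaCTTCCGGcaccgcgggcgc
Sirt5, chr13:43365285-43365495, plus strand: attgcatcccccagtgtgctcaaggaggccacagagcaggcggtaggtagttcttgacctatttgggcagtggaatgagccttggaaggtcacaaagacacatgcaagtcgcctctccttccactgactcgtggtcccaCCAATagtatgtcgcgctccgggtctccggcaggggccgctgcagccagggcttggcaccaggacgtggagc
The Sirt2 capitals are a match, on the reverse strand, of the ZNF143-type motif held by 1.81% of 32851 promoter windows, and the full Sirt2 and Sirt4 windows each held 2 matches. The Sirt3 capitals are the reverse strand of the ETS-type motif CCGGAAG, in 8.86% of windows. The Sirt3 stretch was chosen to hold this match, so its presence there is no finding. A Sirt6 and a Sirt7 window held the motif too. A further Sirt3 window, chr7:140881820-140882119, held 0 ETS-type matches, 4 GC boxes and 1 CCAAT box. A further Sirt6 window also held 0 ETS-type matches. The Sirt5 capitals are a CCAAT box, in 37.4% of windows. No printed stretch held a match of another motif searched. The others were the GC box GGGCGG (in 35.7% of windows), the E-box CACGTG (7.15%), an NRF1-type motif (4.60%) and the TATA motif TATAAA (13.6%). A TATA motif was in no sirtuin window, and Sirt1 alone of the sirtuin windows held the E-box. A match describes the letters of a window and is no measured binding site.

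Sirt2 was the most abundant sirtuin mRNA in 8 of 9 knockdown-table libraries and in 9 of 9 of the overexpression table, and Sirt6 had the lowest group mean in all 6 groups. In scramble the order of the mean levels was Sirt2 at 100.2 ± 15.4 ppm, Sirt3 at 69.5 ± 8.0 ppm, Sirt7 at 60.4 ± 21.6 ppm and Sirt5 at 56.6 ± 3.48 ppm. Sirt1 at 27.6 ± 4.79 ppm, Sirt4 at 23.6 ± 5.48 ppm and Sirt6 at 20.7 ± 1.11 ppm followed (SD, n = 3 for each). Sirt2 lay clear of Sirt3, and Sirt5 lay clear of Sirt1. Sirt3, Sirt7 and Sirt5 overlapped as neighbours in the order, and so did Sirt1, Sirt4 and Sirt6. The empty vector libraries gave the same order but for 1 exchange: Sirt7 at 70.8 ± 5.67 ppm and Sirt3 at 69.8 ± 7.04 ppm, which overlapped. Their Sirt5, at 34.8 ± 7.96 ppm, overlapped Sirt1 at 33.6 ± 2.89 ppm. Against all genes kept, where the median was 6.03 ppm over the knockdown table, Sirt2 stood above 90.9% of genes and Sirt6 above 68.2%. No test was made across the tables, which were normalized apart.

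**Figure D1:**
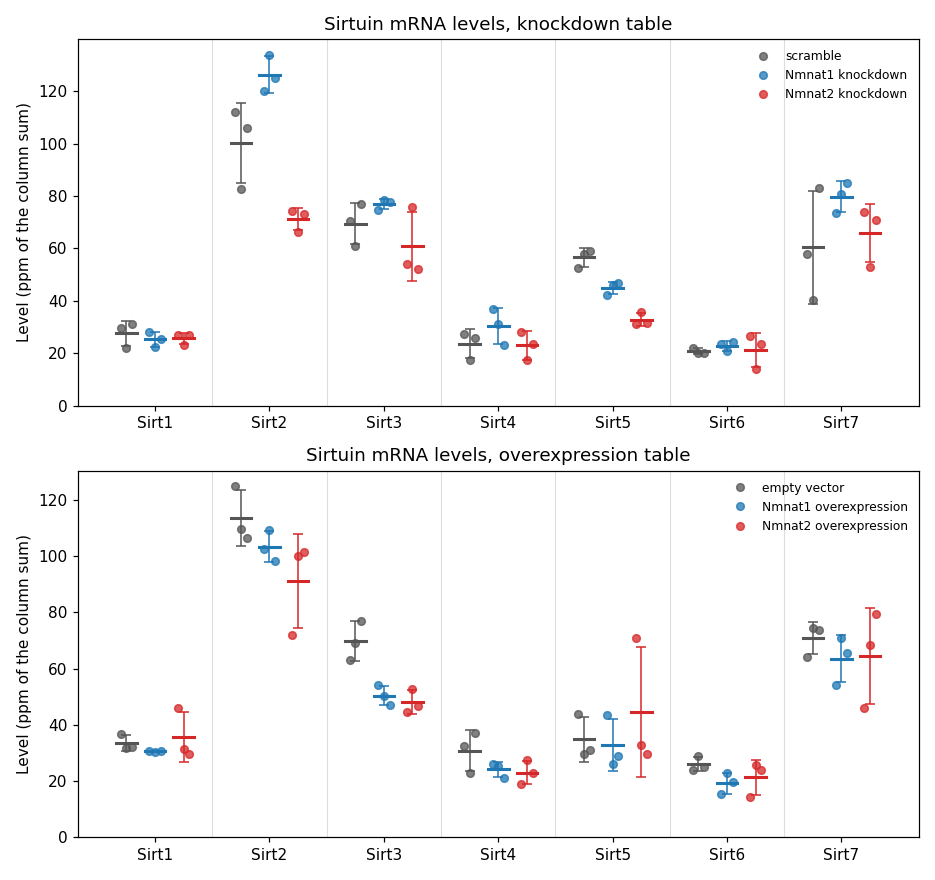
Level of each sirtuin mRNA (vertical axis, ppm of the column sum) in each library of the knockdown table (top) and the overexpression table (bottom). Points are libraries, thick bars group means and thin bars SD (n = 3). Sirt2 separates the 3 knockdown-table groups, Sirt5 steps down from scramble to Nmnat1 knockdown to Nmnat2 knockdown, and Sirt3 in both overexpression groups lies below all empty vector libraries.

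The cytosolic member, Sirt2, which deacetylates tubulin among other proteins, differed between the knockdown arms. It was at 111.9, 82.8 and 105.9 ppm in scramble libraries C1, C2 and C3, at 120.2, 133.9 and 124.8 ppm in Nmnat1 knockdown and at 74.2, 66.4 and 73.0 ppm in Nmnat2 knockdown. Every Nmnat1 knockdown library lay above every scramble library and every Nmnat2 knockdown library below. Between the arms the level was 1.77-fold higher in Nmnat1 knockdown, a log2 difference of 0.82 ± 0.17 (SE) with a limma adjusted p of 0.0418. It was the only 1 of 7 sirtuins called there, where 2.06% of all genes were called, and the median of all genes differed by 0.25 in the same direction. Median-of-ratios scaling, which brings that median to 0.06, left Sirt2 at 0.58 with a limma adjusted p of 0.0988. Across the settings tried the call was also lost with no filter (limma adjusted p = 0.0570), with only the compared groups in the fit (0.101), on the deposited scale (0.554) and without any 1 of C1, C3, N1_1, N1_2, N1_3, N2_1 or N2_3 (0.0632 to 0.192). It held without C2 (0.0486) and without N2_2 (0.00383).

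Against scramble neither arm passed for Sirt2. The log2 fold change was 0.34 ± 0.17 (SE) in Nmnat1 knockdown, with a limma adjusted p of 0.530, and -0.48 ± 0.17 in Nmnat2 knockdown, with 0.209. In the overexpression table Sirt2 was at 124.9, 109.5 and 106.3 ppm in empty vector, 102.5, 109.4 and 98.4 ppm in Nmnat1 overexpression and 72.1, 100.05 and 101.4 ppm in Nmnat2 overexpression. The Nmnat2 arm lay below empty vector, mostly through library N2_1, with a log2 fold change of -0.33 ± 0.14 (SE) and a limma adjusted p of 0.443. Without the libraries numbered 1 that value was -0.10.

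The summed level of the rod markers followed the order of Sirt2, but most single rod markers did so only in Nmnat2 knockdown. The sum was 5766 to 5894 ppm in Nmnat1 knockdown, 4988 to 5275 ppm in scramble and 2074 to 3333 ppm in Nmnat2 knockdown. Against scramble 5 of the 8 rod markers were below 0 in Nmnat1 knockdown (median log2 fold change -0.04, none called), and 8 of 8 were below 0 in Nmnat2 knockdown (median -1.10, 2 called). Of the 8 rod markers 3 were called higher in Nmnat1 than in Nmnat2 knockdown and none lower, among them Nr2e3 (log2 difference 1.71, limma adjusted p = 0.0015), a rod-specific nuclear receptor, and Pde6b (1.48, limma adjusted p = 0.00645), a phototransduction enzyme. Of 5 cone markers 1 was called higher there. Cone markers summed to 193 to 215 ppm in scramble, 149 to 160 ppm in Nmnat1 knockdown and 52.3 to 89.7 ppm in Nmnat2 knockdown. Against scramble 5 of 5 cone markers were below 0 in Nmnat1 knockdown (median log2 fold change -0.34, none called), unlike Sirt2. In Nmnat2 knockdown 4 of 5 were below 0 (median -1.33, 2 called). Müller glia markers summed to 4187 to 4894 ppm in scramble, 2289 to 2409 ppm in Nmnat1 knockdown and 1831 to 2950 ppm in Nmnat2 knockdown. Amacrine and horizontal cell markers summed to 266 to 278 ppm in scramble, 182 to 221 ppm in Nmnat1 knockdown and 270 to 638 ppm in Nmnat2 knockdown, and 3 of 7 were called lower in Nmnat1 than in Nmnat2 knockdown. Progenitor markers summed to 210.1 to 226 ppm in scramble, 96.0 to 112 ppm in Nmnat1 knockdown and 79.98 to 187 ppm in Nmnat2 knockdown, with none of 6 called in any of these comparisons. In bulk libraries fewer cells of a type and less RNA per cell cannot be told apart, and the part of any of these markers in the Sirt2 values was not tested. Sirt2 overlaps Nfkbib, an NF-kappaB inhibitor gene on the opposite strand, by 778 bases, and the library chemistry does not mark strand. Nfkbib went the other way: 36.0 to 38.1 ppm in Nmnat1 knockdown against 40.0 to 56.7 ppm in Nmnat2 knockdown and 42.1 to 52.0 ppm in scramble.

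**Figure D2:**
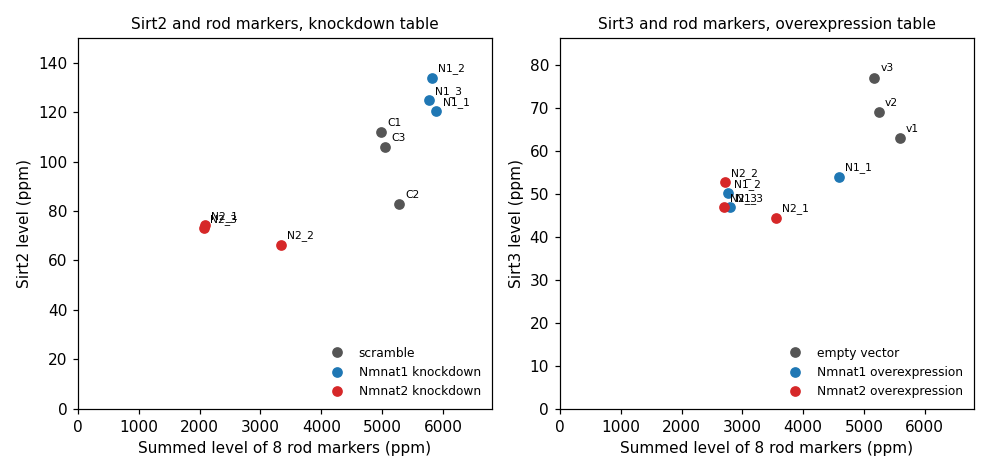
Sirt2 level in the knockdown table (left) and Sirt3 level in the overexpression table (right), both in ppm, against the summed level in ppm of 8 rod markers in the same library, with libraries named and coloured by group. The Nmnat2 knockdown libraries are low on both axes, and the 3 empty vector libraries are high on both.

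Sirt3, the main mitochondrial deacetylase, with targets such as Sod2 and Idh2, was lower in both overexpression groups in all libraries. It was at 63.1, 69.2 and 77.1 ppm in empty vector, at 54.1, 50.3 and 47.0 ppm in Nmnat1 overexpression and at 44.5, 52.8 and 46.9 ppm in Nmnat2 overexpression. No treated library reached the lowest empty vector library. The log2 fold change was -0.46 ± 0.12 (SE, 95% interval -0.72 to -0.19) for Nmnat1, with a limma adjusted p of 0.190. For Nmnat2 it was -0.53 ± 0.12 (SE, 95% interval -0.79 to -0.26), with a limma adjusted p of 0.1002, so neither passed. The 2 arms share their empty vector libraries, and between the arms the log2 difference was 0.07, with a 95% interval of -0.20 to 0.34.

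Sirt3 passed in both arms once the libraries numbered 1 were left out, at -0.58 (limma adjusted p = 0.0177) for Nmnat1 and -0.55 (limma adjusted p = 0.0254) for Nmnat2. Of all genes tested, that fit called 8.04% and 5.9% in either direction, and 3.61% and 2.62% lower. The libraries left out were picked because they stood apart in several sirtuins, so these Sirt3 calls are no independent support. With all libraries in the fit, 7 of 8 rod markers were below 0 with Nmnat1 and 8 of 8 with Nmnat2, of which 0 and 1 were called. Without the libraries numbered 1, 6 of 8 rod markers and 3 of 5 cone markers were called lower in each arm. In the same fits 4 of 7 amacrine and horizontal cell markers were called higher in each arm. Of 6 Müller glia markers 3 were called higher with Nmnat1 and 4 with Nmnat2. Rod markers summed to 2770 to 4595 ppm in Nmnat1 overexpression and 2694 to 3552 ppm in Nmnat2 overexpression, against 5169 to 5584 ppm in empty vector. Cone markers summed to 253 to 320 ppm in empty vector, 116 to 167 ppm in Nmnat1 overexpression and 95.3 to 125 ppm in Nmnat2 overexpression. Amacrine and horizontal cell markers summed to 215 to 232 ppm in empty vector. Those sums were 274 to 360 ppm with Nmnat1 and 231 to 350 ppm with Nmnat2. The part of any of these markers in the Sirt3 values was not tested. Sirt3 also lies head to head with Psmd13, a proteasome subunit gene, with starts 341 bases apart and 342 shared bases. Psmd13 did not follow, at 170.9 ± 10.02 ppm, 171.2 ± 10.9 ppm and 172.7 ± 23.2 ppm (SD, n = 3) in empty vector, Nmnat1 and Nmnat2 overexpression. A larger overlap, of 707 bases, is with Ric8a on the opposite strand, and the library chemistry does not mark strand. The part of Ric8a in the Sirt3 values was not tested.

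In the knockdown table Sirt3 was at 70.6, 61.0 and 76.9 ppm in scramble, 74.8, 78.3 and 77.6 ppm in Nmnat1 knockdown and 54.2, 76.0 and 52.2 ppm in Nmnat2 knockdown. Library N2_2 sat among the scramble values, well above its own group. Without it, Sirt3 was higher in Nmnat1 than in Nmnat2 knockdown by 0.52 on the log2 scale (limma adjusted p = 0.0177), and with it by 0.35 (limma adjusted p = 0.397). Of all genes tested, the fit without N2_2 called 13.1% in either direction and 6.28% higher. Leaving out the library whose Sirt3 level stood apart narrows the scatter, so this Sirt3 call is no independent support. Against scramble the log2 fold changes were 0.15 ± 0.20 (SE) in Nmnat1 knockdown and -0.20 ± 0.20 in Nmnat2 knockdown, with limma adjusted p of 0.825 and 0.644, and the second turned to 0.03 under median-of-ratios scaling.

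Sirt5, the mitochondrial enzyme that removes succinyl, malonyl and glutaryl groups, was lowest in Nmnat2 knockdown. It was at 52.6, 58.0 and 59.1 ppm in scramble, 42.4, 46.0 and 46.7 ppm in Nmnat1 knockdown and 31.2, 35.8 and 31.5 ppm in Nmnat2 knockdown. No 2 of the 3 groups overlapped. Against scramble the mean level was 1.26-fold lower in Nmnat1 knockdown (log2 fold change -0.32 ± 0.18 SE, limma adjusted p = 0.566). In Nmnat2 knockdown it was 1.72-fold lower, with a log2 fold change of -0.77 ± 0.18 (SE, 95% interval -1.16 to -0.38) and a limma adjusted p of 0.0932. The median of all genes in that comparison was -0.23. Without library N2_2 Sirt5 was at -0.83 ± 0.12 (SE) with a limma adjusted p of 0.00195, in a fit that called 15% of all genes tested in either direction and 7.25% lower. N2_2 held the highest Sirt5 level of its group, so this call is no independent support. Median-of-ratios scaling, under which the median of all genes was -0.05, gave -0.53.

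The overexpression table did not show such a step. Sirt5 was at 44.0, 29.5 and 31 ppm in empty vector, 43.6, 26.1 and 29.1 ppm in Nmnat1 overexpression and 71.1, 32.8 and 29.7 ppm in Nmnat2 overexpression. In each group the library numbered 1 was the highest, and the groups overlapped. The log2 fold changes were -0.09 ± 0.31 (SE) for Nmnat1 and 0.26 ± 0.31 for Nmnat2, with limma adjusted p of 0.971 and 0.864. Without N2_1 the second was -0.13, and without all libraries numbered 1 it was 0.04.

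Shared sequence and likeness to other genes bear on how the Sirt5 values can be read. Of the distinct 31-base words in Sirt5 transcripts of GENCODE release M21, 16.4% also occur in other genes, 2932 of them, against 12.1% for Sirt3 and between 0% and 3.05% for the other 5 sirtuins. The sharing is uneven: 3 of its 11 transcripts shared 37.2%, 37.8% and 41.0% of their words, and 4 shared 0%. An estimate per gene can then move with how reads are divided between genes, and that part was not tested. The 2 genes whose pattern was most like that of Sirt5 were Mmp12 (Pearson r = 0.976 over 9 knockdown-table and 0.986 over 9 overexpression-table libraries), a macrophage metalloelastase, and Vmn1r6 (0.970 and 0.983), a vomeronasal receptor. Mmp12 was at 15.0 to 17.4 ppm in scramble, 8.42 to 10.9 ppm in Nmnat1 knockdown and 4.99 to 8.14 ppm in Nmnat2 knockdown, without overlap, and at 21.4 ppm in overexpression library N2_1. Neither gene shares a 31-base word with Sirt5, and these correlations describe 9 libraries a table that share their preparation. Both genes were picked by these correlations, so their likeness to Sirt5 is set by the choice. Microglia markers, a check for macrophage-like cells, summed to 4.5 to 18.2 ppm over the knockdown table.

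**Figure D3:**
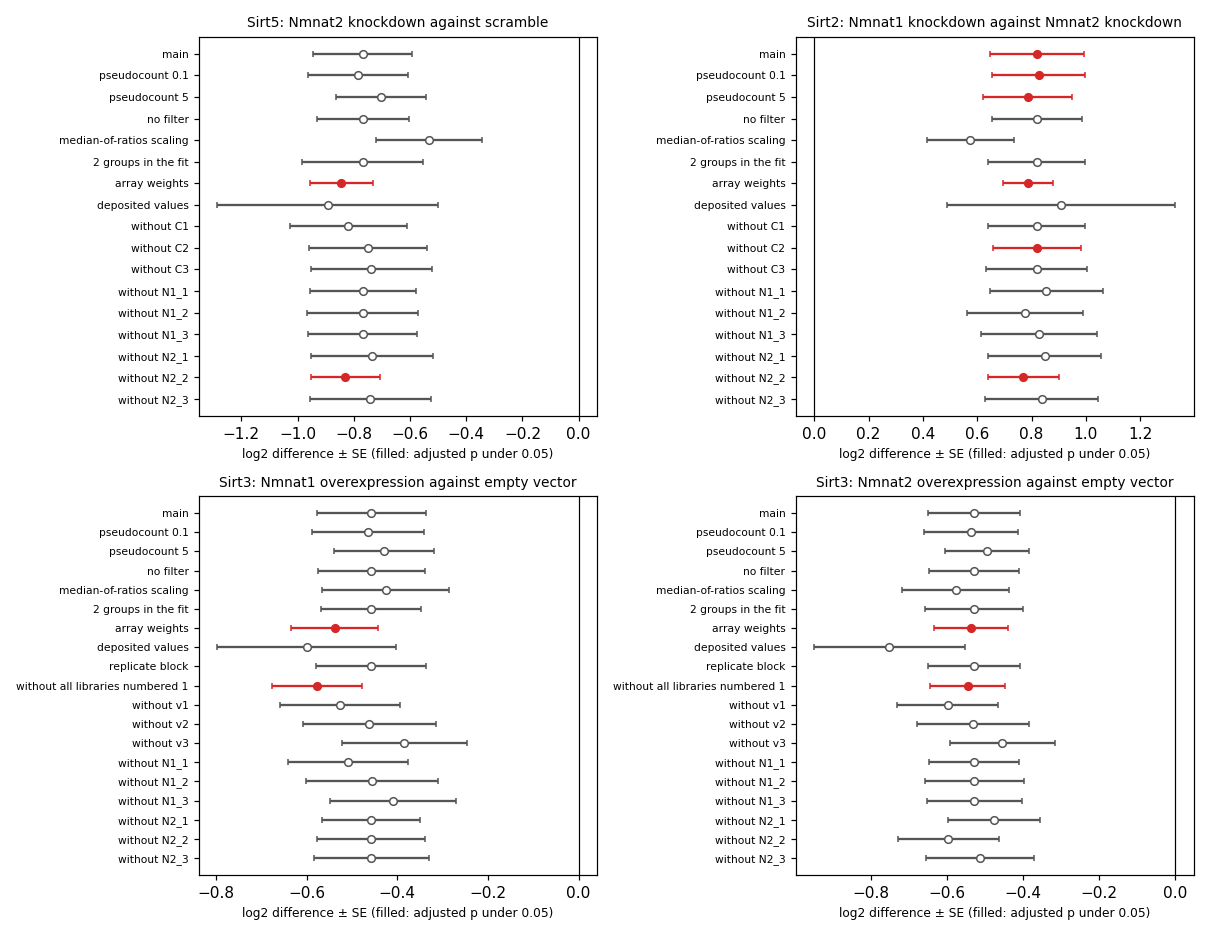
Log2 difference (horizontal axis) with SE bars under each setting (rows) for Sirt5, Sirt2 and Sirt3 in the comparison named above each panel. Filled red points have a limma adjusted p under 0.05. No point crosses 0, whereas the calls come and go with the setting, and leaving out N2_2 or the libraries numbered 1 fills the points for Sirt5 and Sirt3. The libraries numbered 1 were picked on sirtuin values, and N2_2 held the highest Sirt5 level of its group.

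Sirt4, the third mitochondrial member, a lipoamidase and ADP-ribosyltransferase, varied as much within groups as between them. It was at 27.5, 17.3 and 26 ppm in scramble, 36.8, 31 and 23.3 ppm in Nmnat1 knockdown and 28.1, 17.4 and 23.5 ppm in Nmnat2 knockdown. All 3 groups overlapped, with log2 fold changes of 0.35 (limma adjusted p = 0.701) and -0.04 (0.969). In the overexpression table it was at 32.3, 23.0 and 37.2 ppm in empty vector, 26.2, 25.3 and 21.2 ppm with Nmnat1 and 19.0, 27.5 and 22.7 ppm with Nmnat2. The empty vector library v2 overlapped both treated groups, and the log2 fold changes were -0.32 ± 0.20 (SE) and -0.39 ± 0.20 with limma adjusted p of 0.712 and 0.561. Of the 7 sirtuins Sirt4 was the only one with no 31-base word in another gene.

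Among the nuclear members, Sirt1, which deacetylates Trp53, Foxo factors and Ppargc1a, was at 29.7, 22.2 and 31 ppm in scramble, 28.0, 22.5 and 25.5 ppm in Nmnat1 knockdown and 26.8, 23.2 and 27.0 ppm in Nmnat2 knockdown. The 95% intervals of its log2 fold changes were -0.60 to 0.37 and -0.58 to 0.40, which span 0. With overexpression it was at 36.9, 31.7 and 32.1 ppm in empty vector, 30.6, 30.5 and 30.7 ppm for Nmnat1 and 45.9, 31.5 and 29.8 ppm for Nmnat2. The Nmnat1 libraries lay just below all empty vector libraries, by 0.13 on the log2 scale (limma adjusted p = 0.906). Nmnat2 library N2_1 was again the extreme, and the log2 fold change of 0.07 became -0.12 without it.

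Sirt6, a chromatin-bound deacylase with a role in DNA repair, was the least abundant. It was at 22.0, 20.1 and 20.1 ppm in scramble, 23.7, 20.7 and 24.1 ppm in Nmnat1 knockdown and 26.4, 14 and 23.7 ppm in Nmnat2 knockdown. Library N2_2 held the lowest of these values, and without it the Nmnat2 log2 fold change went from -0.0040 to 0.26 (limma adjusted p = 0.318). Overexpression values were 24.1, 28.8 and 25.0 ppm in empty vector, 15.3, 22.8 and 19.7 ppm with Nmnat1 and 14.3, 25.8 and 24.0 ppm with Nmnat2. The Nmnat1 group did not overlap empty vector, at -0.43 ± 0.23 (SE) and a limma adjusted p of 0.622. The Nmnat2 group overlapped it through library N2_2 alone, at -0.31 (limma adjusted p = 0.736).

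Sirt7, which acts on ribosomal DNA transcription, spread widest in scramble. It was at 57.8, 40.1 and 83.1 ppm there, at 73.6, 80.6 and 85.1 ppm in Nmnat1 knockdown and at 73.8, 53.0 and 70.8 ppm in Nmnat2 knockdown. The scramble range covered nearly all other values of the table, and the log2 fold changes were 0.45 ± 0.26 (SE, limma adjusted p = 0.580) and 0.17 ± 0.26 (0.790). It was at 64.3, 74.4 and 73.7 ppm in empty vector, 54.3, 70.8 and 65.5 ppm with Nmnat1 and 46.0, 68.3 and 79.6 ppm with Nmnat2. Both treated groups overlapped empty vector, at -0.16 and -0.16 (limma adjusted p = 0.891 and 0.856).

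Counted over the family, 0 of 7 sirtuins were called by limma in Nmnat1 knockdown against scramble, where 0.144% of all genes were called. None was called in Nmnat2 knockdown against scramble (0.436% of all genes) or in Nmnat1 (0.121%) and Nmnat2 (0.55%) overexpression against empty vector. The same count was 0 of 7 between the overexpression arms, where 0.0193% of genes were called. At an unadjusted limma p under 0.05, Sirt2 and Sirt5 passed in Nmnat2 knockdown, as did 16.8% of all genes, and the same 2 between the knockdown arms, as did 16.4%. Sirt3 passed in Nmnat1 overexpression, with 9.57% of all genes, and Sirt2 and Sirt3 in Nmnat2 overexpression, with 10.3%. No sirtuin passed that threshold in Nmnat1 knockdown (10.5% of all genes) or between the overexpression arms (4.46%). With array weights, which count a library less the more it scatters, Sirt2, Sirt3 and Sirt5 were called lower in Nmnat2 knockdown and higher between the knockdown arms, in fits that called 22.9% and 27.3% of all genes. Sirt3 was then called lower in Nmnat1 and Nmnat2 overexpression, where 7.43% and 6.04% of genes were called.

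Groups that did not overlap were common over the genome. In Nmnat1 knockdown 1 sirtuin was higher (Sirt2) and 1 lower (Sirt5) without overlap, where 24.8% of all genes did not overlap, 12.8% higher and 12% lower. In Nmnat2 knockdown 2 were lower (Sirt2 and Sirt5), against 17.2% of all genes lower and 21.9% in either direction. Between the knockdown arms 2 were higher in Nmnat1 knockdown (Sirt2 and Sirt5), against 19% of genes higher and 25.4% in either direction. Between the overexpression arms no sirtuin was free of overlap, against 8.34% of genes. For overexpression 3 of 7 were lower with Nmnat1 (Sirt1, Sirt3 and Sirt6) and 2 with Nmnat2 (Sirt2 and Sirt3), against 10.1% and 7.73% of all genes lower and 17.8% and 16.3% in either direction. An exact two-sided permutation test of 3 against 3 libraries cannot go below p = 0.1, the value it gave for each of these.

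The median log2 fold change of the 7 sirtuins was 0.15 in Nmnat1 knockdown, beside -0.0034 for all genes tested, with 5 members above 0. In Nmnat2 knockdown it was -0.09 beside -0.23, with 6 members below 0, and without library N2_2 it was -0.02 beside -0.15. For overexpression the median was -0.16 beside -0.04 with Nmnat1, all 7 members below 0, and -0.31 beside 0.06 with Nmnat2, 5 members below 0. Without the libraries numbered 1 these 2 medians were -0.13 and -0.10. The arms of a table share their control libraries, so their values are not independent of each other.

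**Figure D4:**
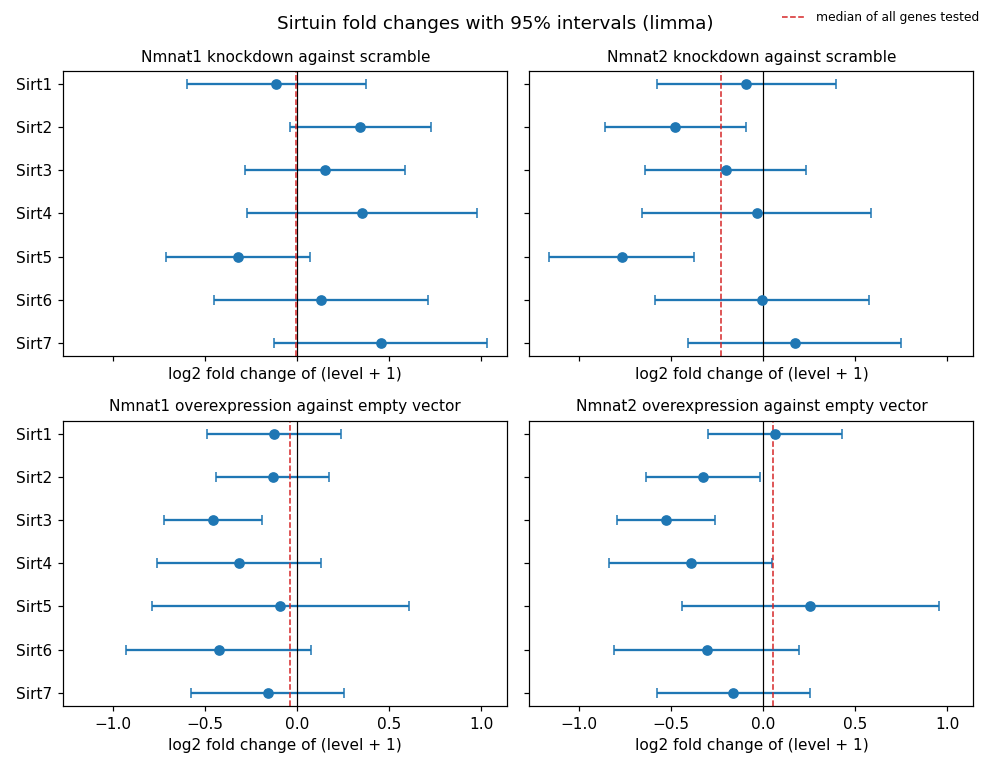
Log2 fold change of (level + 1) with its 95% limma interval (horizontal axis) for each sirtuin in the 4 comparisons against control. The dashed line is the median of all genes tested. Intervals clear of 0 are those of Sirt2 and Sirt5 in Nmnat2 knockdown, Sirt3 in both overexpression comparisons and Sirt2 in Nmnat2 overexpression, and none of these had an adjusted p under 0.05.

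Genes around the sirtuin pathway were read from 6 lists. Regulators of sirtuins (7 of 8 measured and kept), such as Hif1a and Senp1, had no member called in the 4 comparisons against control. The same held for nuclear and cytosolic substrates (21 of 22 kept), for mitochondrial substrates (25 of 27 kept in the knockdown and 24 in the overexpression table), for other NAD consumers such as the Parp enzymes (16 of 17 kept) and for the zinc-dependent histone deacetylases (11 of 11 kept). Of NAD supply genes (14 of 15 kept), only the overexpressed genes were called, Nmnat1 in its own arm (log2 fold change 9.73, limma adjusted p = 3.4e-09) and Nmnat2 in its own (12.90, limma adjusted p = 8.3e-10).

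The member with the smallest p is given here for some lists and comparisons. Ppargc1a, a Sirt1 substrate and coactivator of mitochondrial genes, was at -0.82 in Nmnat1 and -1.25 in Nmnat2 knockdown, with limma adjusted p of 0.366 and 0.0967. Without library N2_2 it was called in Nmnat2 knockdown (limma adjusted p = 0.0172) and not in Nmnat1 knockdown (0.0921). Sod2, the mitochondrial superoxide dismutase that Sirt3 deacetylates, was at 0.59 in Nmnat1 knockdown (limma adjusted p = 0.199), and was called without N2_2 (0.00436). Among NAD supply genes Slc12a8, reported as a nicotinamide mononucleotide transporter, was at -1.0002 in Nmnat2 knockdown (limma adjusted p = 0.116), and was called without N2_2 (0.00201). Hdac11, a zinc-dependent deacylase, was at 1.27 in Nmnat1 knockdown (limma adjusted p = 0.229, and 0.0403 without N2_2). The fit without N2_2 called 1802 of 22233 genes in Nmnat1 knockdown against 32 with it, and 3331 against 97 in Nmnat2 knockdown. N2_2 is in neither group of the Nmnat1 knockdown comparison, and the Sod2 and Hdac11 fold changes stayed at 0.59 and 1.27 without it.

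In the overexpression table Acadvl, a fatty acid oxidation enzyme and Sirt3 substrate, was at -0.48 and -0.53 with Nmnat1 and Nmnat2 (limma adjusted p = 0.170 and 0.0985). It was called in both arms without the libraries numbered 1 (limma adjusted p = 0.00541 and 0.0173). Hif1a, a hypoxia factor tied to several sirtuins, was at 0.29 and 0.45 in the same arms (limma adjusted p = 0.310 and 0.0820), and was also called in both without those libraries (0.0163 and 0.0106). Hdac2, a class I histone deacetylase, was at 0.26 and 0.28 (limma adjusted p = 0.396 and 0.326), and again called in both without them (0.00963 and 0.0136). Of the other NAD consumers Parp6, a mono-ADP-ribosyltransferase, was at 0.21 with Nmnat2 (limma adjusted p = 0.543, and 0.0307 without those libraries).

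Without library N2_2, 8 nuclear and cytosolic substrates of 21 were called higher and 1 lower in Nmnat2 knockdown, where 15% of all genes were called, 7.73% higher and 7.25% lower. Mitochondrial substrates then had 2 higher and 3 lower of 25, and sirtuin regulators 3 higher of 7. Median log2 fold changes in that fit were 0.37 for the nuclear and cytosolic substrates and 0.02 for the mitochondrial substrates, beside -0.15 for all genes. Lists that hold no substrates as such also had positive medians: sirtuin regulators 0.30, other NAD consumers 0.24 and zinc-dependent histone deacetylases 0.23. NAD supply genes were at -0.30. With N2_2 in the fit, the median of the nuclear and cytosolic substrates was -0.0013, with none called.

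For the other sirtuins the likest genes were named by the smaller of the 2 Pearson correlations over the 9 libraries of each table, among 9933 genes, as a description. Sirt2 ran with Ubxn6 (0.906 and 0.946) and Ebf4 (0.891 and 0.957). Ubxn6 was at 118.7 ± 8.13 ppm in Nmnat1 and 83.8 ± 2.21 ppm in Nmnat2 knockdown (SD, n = 3), the same order as Sirt2. Ubxn6 and the other genes named here were picked on these libraries, so such a likeness is set by the choice. Sirt3 ran with Yif1b (0.923 and 0.920) and Nrtn (0.910 and 0.938), the latter encoding the growth factor neurturin. Nrtn was at 126.8 ± 4.18 ppm in empty vector, 72.6 ± 12.4 ppm in Nmnat1 overexpression and 62.7 ± 9.57 ppm in Nmnat2 overexpression (SD, n = 3). Sirt1 had Vps54 (0.834 and 0.845) and Zfp758, Sirt4 had Haus7 (0.818 and 0.837) and Entpd6, Sirt6 had Dpp3 (0.920 and 0.922) and Dcaf8, and Sirt7 had Pgs1 (0.908 and 0.956) and Endov.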

How the data were processed

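The deposited signal is named TPM by the authors, but its columns sum to between 14.4 and 29.6 in units of 1000000, so it was used as a length-scaled signal of unknown scale. The submitters' processing notes list Salmon 0.11.3, sleuth 0.30.0 and the build GRCm38.p6. Column names of the knockdown table show groups only. In each Nmnat2 group 1 sample is titled Nmnat3, and the description and characteristics, which name Nmnat2, were followed.

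Values were divided by the column sum (ppm). A gene was kept if 3 or more of the 9 libraries reached 1 ppm, and log2(ppm + 1), which understates changes of low genes, went into limma 3.58.1 (R 4.3.3), 3 groups per fit, mean-variance trend, two-sided, Benjamini-Hochberg over all genes kept, threshold 0.05. The script was tested on simulated data. No test crosses tables.

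The sirtuins, lists, rules and alternatives were chosen with earlier results of these data known. Of each list up to 3 members with the smallest p were to be named, and at most 1 is given per list and comparison. The likest genes needed a mean of 5 ppm in both tables, and a symbol held by more than 1 row was left out. Low values lay within 0.1 of whole-read steps in 66.6% to 86.0% of cases per library, too few for a count test. The step was the best-fitting of those tried in each library, at an assumed fragment length of 250 bases. The 20% expected at 1 fixed step is therefore not the chance level of these values.

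Coordinates are from GENCODE release M21, which the authors may not have used. Figures used matplotlib 3.10.9.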

Additional observations from a re-analysis of the deposited data

Results flagged for a closer look

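Sirt2 differed between the knockdown arms by 0.82 on the log2 scale (Nmnat1 minus Nmnat2 knockdown, SE 0.17, limma adjusted p = 0.0418), by a test of the difference itself. The call was lost in 11 other settings, median-of-ratios scaling among them (limma adjusted p = 0.0988). Neither arm passed against scramble (limma adjusted p = 0.530 and 0.209). Every Nmnat1 knockdown library lay above, and every Nmnat2 knockdown library below, all scramble libraries. Of all genes, 12.8% lay above without overlap in Nmnat1 knockdown and 17.2% below in Nmnat2 knockdown. Between the arms the median of all genes differed by 0.25 in the direction of Sirt2. The summed level of 8 rod markers went that way too, though 5 of the 8 were below 0 in Nmnat1 knockdown against scramble. Their part was not tested.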

How the results depend on the processing

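Of 714 fits of a sirtuin under another setting, 650 kept direction and side of the threshold, 41 changed sign, 12 gained and 11 lost a call. The cause was not tested, unless named. On all genes, calls in Nmnat1 knockdown went from 32 to 17 with a pseudocount of 0.1, 14 with no filter, 969 with 2 groups in the fit, 868 with array weights and 2 on the deposited scale (pseudocount 20, chosen after seeing the data), and ranged from 0 to 1802 when single libraries were left out. In Nmnat2 knockdown 97 became 32 with no filter, 0 with 2 groups, 5101 with array weights and 0 on the deposited scale, with 0 to 3331 over single libraries left out. Between the knockdown arms 458 became 108, 6072 and 17 with 2 groups, array weights and the deposited scale, with 80 to 2904 over libraries left out. In Nmnat1 overexpression 25 became 16 with no filter, 9 with median-of-ratios scaling, 1540 with array weights, 1 on the deposited scale and 1666 without the libraries numbered 1, with 3 to 271 over libraries left out. In Nmnat2 overexpression 114 became 48, 71, 1251, 59 and 1222 in the same order, with 3 to 301. Between the overexpression arms 4 became 2 with 2 groups, 25 with array weights, 2 on the deposited scale and 38 without the libraries numbered 1, with 2 to 11.

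In the overexpression table the deviations of same-numbered libraries correlated at 0.027 to 0.46 over 9 pairs, and those of differently numbered libraries at -0.38 to 0.24. For 3 of 9 libraries every same-numbered correlation lay above every other one. Numbers were not treated as pairs in the main fit. A replicate block in the overexpression table gave 187 and 269 called genes for Nmnat1 and Nmnat2 and 0 sirtuins in each. For the knockdown table, no paired analysis was possible because the knockdown columns carry no sample number of the labels.

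The count of sirtuins called in Nmnat2 knockdown went from 0 to 3 with array weights (Sirt2, Sirt3 and Sirt5, where 22.9% of all genes were called) and from 0 to 1 over libraries left out. Between the knockdown arms 1 became 3 with array weights and 0 with no filter, median-of-ratios scaling, 2 groups or the deposited scale, and was 0 to 3 over libraries left out. For Nmnat1 and Nmnat2 overexpression against empty vector the count of 0 became 1 (Sirt3) with array weights, where 7.43% and 6.04% of all genes were called. It also became 1 (Sirt3) without the libraries numbered 1, where 8.04% and 5.9% were called. Between the overexpression arms no sirtuin gained a call.

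Signs changed in Nmnat2 knockdown under median-of-ratios scaling for Sirt1 (0.14), Sirt3 (0.034), Sirt4 (0.20), Sirt6 (0.22) and Nmnat1 (0.20), with array weights for Sirt4 (0.14), Sirt6 (0.29) and Nmnat1 (0.19), and with a pseudocount of 5 for Sirt6 (0.0033). Between the knockdown arms Sirt6 turned to -0.10 under median-of-ratios scaling and -0.18 with array weights, and Sirt1 to 0.063 on the deposited scale. In Nmnat2 overexpression Sirt1 turned to -0.055 with array weights, -0.15 on the deposited scale and -0.054 without the libraries numbered 1, and Parp6 to -0.011 on the deposited scale. Between the overexpression arms array weights and leaving out the libraries numbered 1 turned Sirt3 to -0.00076 and -0.032, Sirt4 to -0.056 and -0.11, and Sirt7 to -0.11 and -0.11.

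Signs also changed when single libraries were left out. For Nmnat1 knockdown against scramble, the log2 difference ranged for Nmnat2 from -0.65 to 0.42. For Nmnat2 knockdown against scramble, the log2 difference ranged for Sirt4 from -0.23 to 0.14, Sirt6 from -0.17 to 0.26, Sirt7 from -0.088 to 0.43 and Nmnat1 from -0.12 to 0.16. For Nmnat1 knockdown against Nmnat2 knockdown, the log2 difference ranged for Sirt1 from -0.094 to 0.059 and Sirt6 from -0.13 to 0.31. For Nmnat1 overexpression against empty vector, the log2 difference ranged for Sirt5 from -0.30 to 0.085. For Nmnat2 overexpression against empty vector, the log2 difference ranged for Sirt1 from -0.12 to 0.18, Sirt5 from -0.13 to 0.48 and Sirt7 from -0.33 to 0.061. For Nmnat1 overexpression against Nmnat2 overexpression, the log2 difference ranged for Sirt6 from -0.37 to 0.032, Sirt7 from -0.22 to 0.17, Sirt4 from -0.049 to 0.21 and Sirt5 from -0.57 to 0.040.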

Other observations

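Over the 9 libraries of the overexpression table some sirtuins moved together. Sirt6 and Sirt7 correlated at Pearson r = 0.892, Sirt1 and Sirt5 at 0.886, and Sirt5 and Sirt7 at -0.899. In the knockdown table the same pairs were at 0.467, 0.093 and -0.182. These values describe 9 libraries that share preparation, and the libraries numbered 1 hold the extremes of several of the genes: N2_1 had the highest Sirt1 and Sirt5 and the lowest Sirt2, Sirt3, Sirt4, Sirt6 and Sirt7 of that table.

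Dnajc12, a co-chaperone gene on the opposite strand, starts 739 bases from the outermost GENCODE start of Sirt1. The RefSeq start that the Sirt1 promoter window was taken from lies inside the GENCODE gene, farther from Dnajc12. Dnajc12 was at 38.0 to 42.9 ppm in scramble and 20.7 to 26.2 ppm in Nmnat2 knockdown, without overlap, while Sirt1 overlapped. With overexpression it was at 35.9 to 51.9 ppm in empty vector, 28.1 to 35.1 ppm with Nmnat1 and 29.1 to 34.8 ppm with Nmnat2, again without overlap. The exact permutation p was 0.1 for each, the smallest that 3 against 3 can give. Ankrd24, whose start lies 743 bases from that of Sirt6, overlapped in all comparisons made. Mafg, which shares 124 bases with Sirt7, was lower in Nmnat2 overexpression (43.4 to 60.2 ppm) than in empty vector (62.8 to 76.5 ppm).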
